A study of Rattus norvegicus with 8 samples.

Results

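The genes that encode the voltage-gated sodium and calcium channels were examined in rat hippocampus during hypobaric hypoxia. They were taken as all non-control array probes whose gene name begins with Scn and a digit, or with Cacna, Cacnb or Cacng. This gave 52 of 30367 probes, for 40 genes. Of these, 14 are sodium channel genes (10 for the pore-forming alpha subunits and 4 for the beta subunits). The other 26 are calcium channel genes, of which 10 encode pore-forming alpha1 subunits, 4 alpha2delta subunits, 4 beta subunits and 8 gamma subunits. After removal of probes close to background, 38 of the 40 channel genes remained among 21296 genes tested. The 2 genes left out were Cacna1f, the alpha1 subunit of retinal photoreceptors, and Cacna2d4, an alpha2delta subunit of the retina. Neither was well above background on both arrays of any group.

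Voltage-gated sodium channels open on depolarisation and carry the rising phase of the action potential, and their beta subunits adjust gating, surface level and cell adhesion. Voltage-gated calcium channels turn depolarisation into calcium entry, which releases transmitter at terminals and signals to the nucleus from dendrites. Their alpha2delta and beta subunits bring the pore to the membrane, while several gamma genes mainly encode auxiliary proteins of AMPA glutamate receptors (the TARPs), which set receptor traffic and gating at hippocampal synapses.

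Total RNA came from the hippocampus of male Sprague Dawley rats. There were 4 groups of 2 single-colour Agilent arrays: normoxia, and exposure in a decompression chamber at a pressure equal to 25000 ft with an effective 8% oxygen, titled day 1, day 3 and day 7. The group titled day 7 has 5 days in its exposure field and is called day 7 here. Whether the arrays of a group stand for different animals is not labelled, so the p-values describe array-to-array spread, which may be technical. Values are log2 signals minus the array's 75th percentile and are compared only within a probe. Changes are differences between mean log2 values (± SE, n = 2 arrays in each group). A gene was said to rise or fall where the limma adjusted p over 21296 genes was under 0.05. The 2 arrays of a group differed, per channel gene, by a median of 0.04 to 0.08.

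The arrays differed in ways that bear on the channel genes. Spots well above background made up 84.5% to 85.6% of spots in normoxia, 80.6% to 82.1% for day 1, 75.7% for both arrays of day 3 and 72.6% to 77.0% for day 7. Of the 52 channel probes, 50 were well above background on each normoxia array. The number was 47 and 50 for the day 1 arrays, 44 and 42 for day 3, and 47 and 43 for day 7. Markers of hippocampal neurons were well above background for 8 to 10 of 10 genes on every array. Markers of the striatum, a neighbouring region, were all higher on day 1 (13 of 13 tested, median log2 change 3.29). Markers of the choroid plexus were all lower on day 1 (10 of 10, median -4.13) and on day 7 (10 of 10, median -3.31). On day 3, 3 of these 10 were higher and 4 lower. In bulk tissue, fewer cells of a type and less RNA per cell cannot be told apart.

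Promoter sequences show how unlike the starting regions of the channel genes are, including those of genes that moved together or apart below. They are the 250 bases before and 50 after the start of each gene in RefSeq, build GRCr8, 5′ to 3′. All 40 genes matched RefSeq and 27 had a promoter sequence. Capitals mark the core of the hypoxia response element, searched as ACGTG and GCGTG on both strands, so that a match on the other strand reads CACGT or CACGC. Scn2b (chr8:54322133-54322432, plus strand) and Scn4b (chr8:54343623-54343922, plus strand) are shown because they are neighbours, with no protein-coding gene between them, and moved in opposite directions on day 1. Scn2a1, now named Scn2a (chr3:70710706-70711005, plus strand), and Cacna1b (chr3:27944236-27944535, minus strand) are shown because both were higher on day 3 and day 7.
Scn2b: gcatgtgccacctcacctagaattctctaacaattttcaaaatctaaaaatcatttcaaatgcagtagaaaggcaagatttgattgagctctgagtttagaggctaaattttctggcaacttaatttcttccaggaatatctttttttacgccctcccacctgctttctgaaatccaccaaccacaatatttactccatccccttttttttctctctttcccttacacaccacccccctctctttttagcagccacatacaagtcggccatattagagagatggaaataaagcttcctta
Scn4b: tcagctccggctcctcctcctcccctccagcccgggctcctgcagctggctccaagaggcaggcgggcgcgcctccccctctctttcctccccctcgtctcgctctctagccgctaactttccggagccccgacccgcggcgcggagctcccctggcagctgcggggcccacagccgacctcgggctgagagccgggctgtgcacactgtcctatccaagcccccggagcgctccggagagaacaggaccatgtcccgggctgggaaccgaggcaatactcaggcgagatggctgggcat
Scn2a1: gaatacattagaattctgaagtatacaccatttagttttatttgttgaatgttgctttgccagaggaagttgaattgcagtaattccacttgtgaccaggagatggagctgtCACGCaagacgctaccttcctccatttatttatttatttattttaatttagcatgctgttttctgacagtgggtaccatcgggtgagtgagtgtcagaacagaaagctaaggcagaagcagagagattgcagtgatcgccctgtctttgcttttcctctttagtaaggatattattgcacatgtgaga
Cacna1b: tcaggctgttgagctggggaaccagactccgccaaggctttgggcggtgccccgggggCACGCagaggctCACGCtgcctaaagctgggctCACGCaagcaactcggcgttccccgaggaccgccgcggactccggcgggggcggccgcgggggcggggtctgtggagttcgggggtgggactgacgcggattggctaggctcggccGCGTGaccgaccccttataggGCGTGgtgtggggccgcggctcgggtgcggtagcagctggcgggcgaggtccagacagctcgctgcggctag
The promoters of Scn2b and Scn4b hold no match and differ in base composition, with a GC content of 39.0% and 70.0%. Their windows start 21490 bases apart. The Scn2a1 promoter holds 1 match in a GC content of 39.3%, and the Cacna1b promoter holds 5 in 72.0%. Among the 27 channel gene promoters, 8 (29.6%) hold at least 1 match, against 13937 of 33469 promoters of all genes (41.6%). A match was held by 4 of 9 promoters of channel genes that rose on day 7 and by 4 of 9 of those that fell. On day 3 it was held by 4 of 8 promoters of genes that rose and 1 of 8 of those that fell. On day 1 it was held by 1 of 5 that rose and 1 of 5 that fell. Among channel genes not called, a match was held by 6 of 16 on day 1, 3 of 10 on day 3 and 0 of 8 on day 7. A match is a description of the letters and does not show that a factor binds there.

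Most channel genes changed at some time, and they did so in both directions. On day 1, 9 of the 38 rose and 8 fell (44.7%), where 35.5% of all genes were called, 15.3% higher and 20.2% lower. On day 3, 11 rose and 14 fell (65.8%), where 50.3% of all genes were called, 24.2% higher and 26.2% lower. On day 7, 13 rose and 15 fell (73.7%), where 61.3% of all genes were called, 31.5% higher and 29.7% lower. The median change of the 38 was 0.04, -0.11 and -0.08 on days 1, 3 and 7, beside -0.07, -0.05 and -0.03 for all genes. Over all groups, 33 of the 38 differed by the moderated F-test, where 72.1% of all genes did. The day 1 count was the least stable: it was 9 without the first day 1 array, 10 without the second, and 10 without the first normoxia array. The 3 comparisons share the normoxia arrays.

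Few channel genes changed by 2-fold or more. Scn4b and Cacng1 rose that far on day 1, where 1.47% of all genes did, and none fell that far, where 2.1% did. Cacna2d2 and Cacng4 were among the genes that fell that far on day 3, where 5.56% of all genes did, and none rose that far, where 1.52% did. On day 7 Scn3b rose that far, where 1.91% of all genes did, and Cacng3, Cacng4 and Cacna2d3 were among those that fell that far, where 9.45% did.

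The course over time differed between genes. Scn2a1, Cacna1e and Cacnb1 rose on all 3 days, and Cacna1a and Cacng7 were among those that fell on all 3. Another 9 rose on 1 or 2 days and did not fall, and 10 fell on 1 or 2 days and did not rise. Both directions were called at different times for 8 genes: Scn2b, Scn4b, Scn7a, Scn10a, Cacna1c, Cacna1h, Cacna2d3 and Cacnb4. On no day were Scn4a, Scn9a, Cacna1i, Cacng5 or Cacng6 called.

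**Figure D1:**
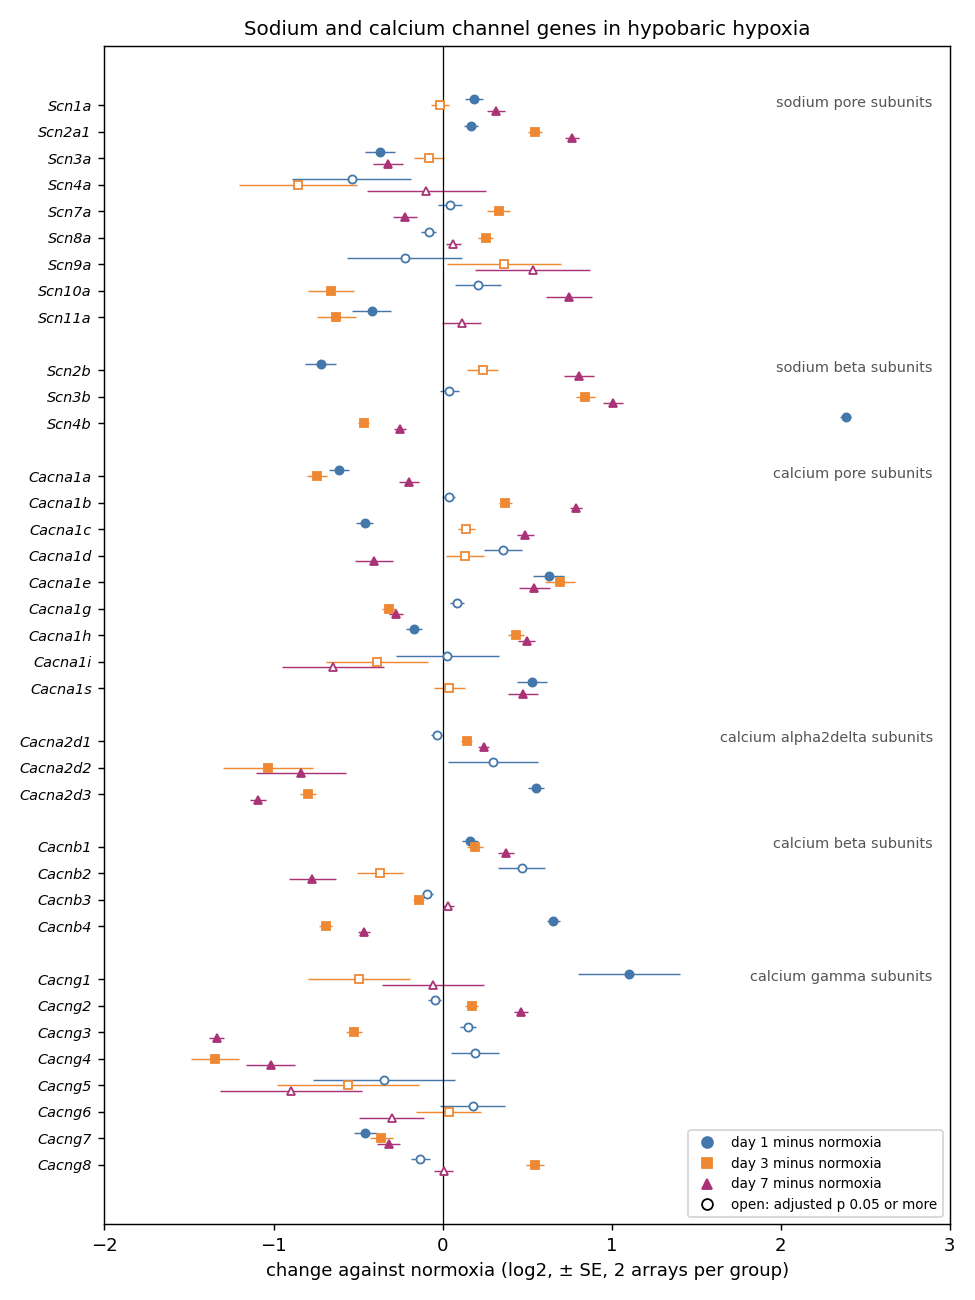
Change of each of 36 channel genes against normoxia (x axis, log2, points with SE bars, 2 arrays per group) on day 1 (circles), day 3 (squares) and day 7 (triangles), grouped by subunit; open symbols had an adjusted p of 0.05 or more. Scn4b on day 1 stands at 2.38, and the fall of Cacng3 on day 7 stands at -1.34.

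The sodium channel beta subunit genes described here were all called on day 7, in both directions. Scn4b, whose product gives resurgent current in some fast-firing neurons and is known to be rich in the striatum, was measured on 10 spots per array. Its probe (rn4 chromosome 8, 48106487 to 48106546) read 1.58 and 1.59 (normoxia), 3.97 and 3.96 (day 1), 1.13 and 1.102 (day 3) and 1.36 and 1.31 (day 7). Day 1 alone lay above normoxia, and both later groups lay below it, with no overlap. Scn4b thus rose 5.22-fold on day 1 (2.38 ± 0.04, adjusted p = 1.04e-05). It fell by 0.47 on day 3 (± 0.04, adjusted p = 0.000491) and by 0.25 on day 7 (± 0.04, adjusted p = 0.00209). The day 7 value was 0.05, on the other side of 0, when arrays were centred on their medians.

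The day 1 rise of Scn4b came with the striatal markers. The mean log2 signal of the 13 tested markers was 0.53 and 0.43 on the day 1 arrays, against -2.78 on each normoxia array. It was -3.23 and -3.24 on day 3, and -3.16 and -3.19 on day 7. Adora2a and Drd2, receptors of striatal projection neurons, rose by 4.61 ± 0.04 and 3.29 ± 0.04 on day 1. On day 3, 8 of the 13 fell and 2 rose, while Scn4b fell. The number of the 13 well above background was 13 on each day 1 array, 12 on each normoxia array and 9 on each later one. The part of striatal tissue in the Scn4b result was not tested.

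**Figure D2:**
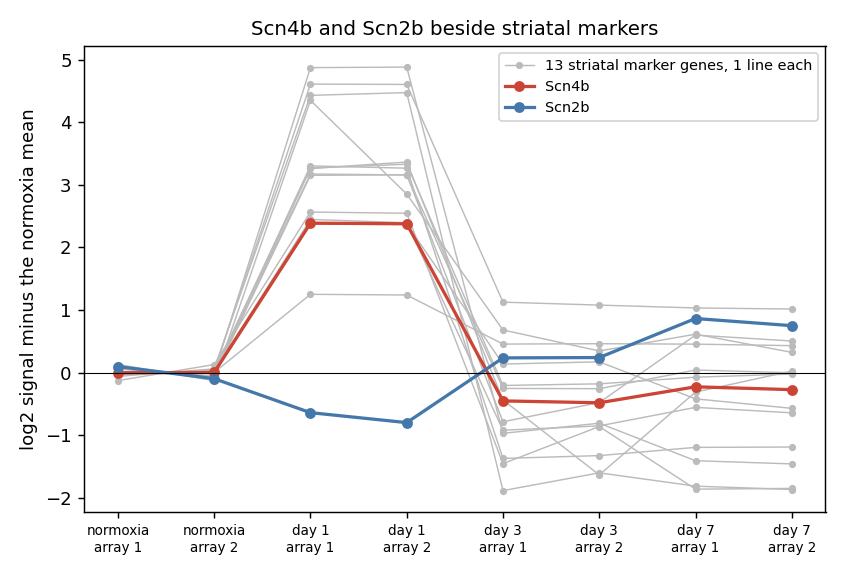
Log2 signal of each array minus the normoxia mean of the gene (y axis) for the 8 arrays in group order (x axis), for Scn4b (red), Scn2b (blue) and each of 13 striatal markers (grey). Scn4b and the markers are high on both day 1 arrays, where Scn2b is low.

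Scn2b, a beta subunit joined to the pore by a disulfide bond, took the opposite course to its neighbour Scn4b on day 1. Its probe (rn4 chromosome 8, 48078455 to 48078514) read -3.93 and -4.12 (normoxia), -4.67 and -4.83 (day 1), -3.79 and -3.79 (day 3) and -3.16 and -3.28 (day 7). Day 1 lay below normoxia and day 7 above it. The change was -0.72 ± 0.09 on day 1 (adjusted p = 0.0038), 0.24 ± 0.09 on day 3 (adjusted p = 0.0805) and 0.81 ± 0.09 on day 7 (adjusted p = 0.000945).

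Scn3b, a non-covalently bound beta subunit, rose from day 3. Its probe (rn4 chromosome 8, 43253930 to 43253989) read 5.59 and 5.51 (normoxia), 5.58 and 5.60 (day 1), 6.45 and 6.33 (day 3) and 6.59 and 6.53 (day 7). The day 1 arrays lay beside those of normoxia, and the later arrays lay above them with no overlap. Scn3b rose by 0.84 ± 0.06 on day 3 (adjusted p = 0.000392) and by 1.01 ± 0.06 on day 7 (adjusted p = 0.000118).

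Among the pore-forming sodium channel genes, Scn2a1, the main channel of excitatory forebrain axons, climbed throughout. Its probe (rn4 chromosome 3, 47722732 to 47722791) read 3.50 and 3.46 (normoxia), 3.62 and 3.67 (day 1), 4.05 and 4.01 (day 3) and 4.27 and 4.22 (day 7). Each group lay wholly above the one before it. The change was 0.17 ± 0.04 on day 1 (adjusted p = 0.0319), 0.55 ± 0.04 on day 3 (adjusted p = 0.000519) and 0.77 ± 0.04 on day 7 (adjusted p = 0.000105). The day 1 call was lost when any 1 array of normoxia, day 1 or day 3 was left out (0.14 to 0.19, adjusted p 0.0528 to 0.152).

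The other alpha subunits of central neurons changed less. Scn8a, the channel of the axon initial segment and nodes, rose by 0.26 ± 0.05 on day 3 (adjusted p = 0.00686) and measured 0.06 ± 0.05 on day 7. Scn1a, the main channel of inhibitory interneurons, rose by 0.19 ± 0.05 on day 1 (adjusted p = 0.0472) and by 0.32 ± 0.05 on day 7 (adjusted p = 0.00441), and measured -0.01 ± 0.05 on day 3. Its day 1 call was lost without any 1 array of normoxia, day 1 or day 7 (adjusted p 0.0712 to 0.17). The day 7 call of Scn1a was lost with quantile normalization (0.15), normexp (0.25) and GC trend removal (0.13). Scn3a, a channel best known from the embryonic brain, fell by 0.37 on day 1 (± 0.09, adjusted p = 0.0258) and by 0.32 on day 7 (± 0.09, adjusted p = 0.0237). Both calls were lost without either normoxia array or without the first array of the exposed group (adjusted p 0.0806 to 0.113). The day 7 value of Scn3a was -0.03 with median centring and -0.14 with quantile normalization.

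The remaining sodium channel genes are known mainly from peripheral sensory neurons, glia or muscle. Scn10a, a sensory neuron channel, read -6.37 and -6.04 (normoxia), -6.09 and -5.91 (day 1), -6.94 and -6.79 (day 3) and -5.39 and -5.53 (day 7). Both day 3 arrays lay below normoxia and neither was well above background, and day 7 lay above normoxia. The day 3 signal measured 1.58-fold lower than in normoxia (adjusted p = 0.0122), a fold that rests on signal not well above background. The day 7 signal was 1.68-fold higher (0.75 ± 0.14, adjusted p = 0.00591). The day 3 call was lost without the first day 3 array (-0.59) and with quantile normalization (-0.25). With normexp background correction the day 3 value was 0.32, called higher (adjusted p = 0.0161).

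Scn11a, another sensory neuron channel, fell by 0.42 on day 1 (± 0.11, adjusted p = 0.0399) and by 0.63 on day 3 (± 0.11, adjusted p = 0.00769) and measured 0.11 on day 7. With normexp neither fall of Scn11a was called (-0.18 on day 1 and -0.11 on day 3). Its day 1 call was lost without 5 of the 8 arrays, among them both day 1 arrays (adjusted p 0.0604 to 0.146). Scn7a, a sodium sensor of glia, rose by 0.33 on day 3 and fell by 0.22 on day 7 by its probe on 10 spots. Its other probe was well above background on 3 of the 8 arrays, and on none of day 3 or day 7. That probe read lower on all 3 days (-0.84, -1.37 and -1.11). The 2 probes thus differ in direction on day 3, but the dimmer one rests there on signal not well above background. The Scn7a calls were lost without either normoxia array (and without the second day 3 array on day 3, or either day 7 array on day 7). With normexp the Scn7a day 7 value was 0.28, called higher (adjusted p = 0.00655). With the mean of its probes the day 3 value was -0.52, called lower (adjusted p = 0.0198). Scn4a, the skeletal muscle channel, had normoxia arrays 1.12 apart. Scn9a, the other sensory neuron channel, had day 3 arrays of -3.93 and -4.99. Markers of peripheral sensory neurons and of skeletal muscle were not called together in 1 direction on any day.

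**Figure D3:**
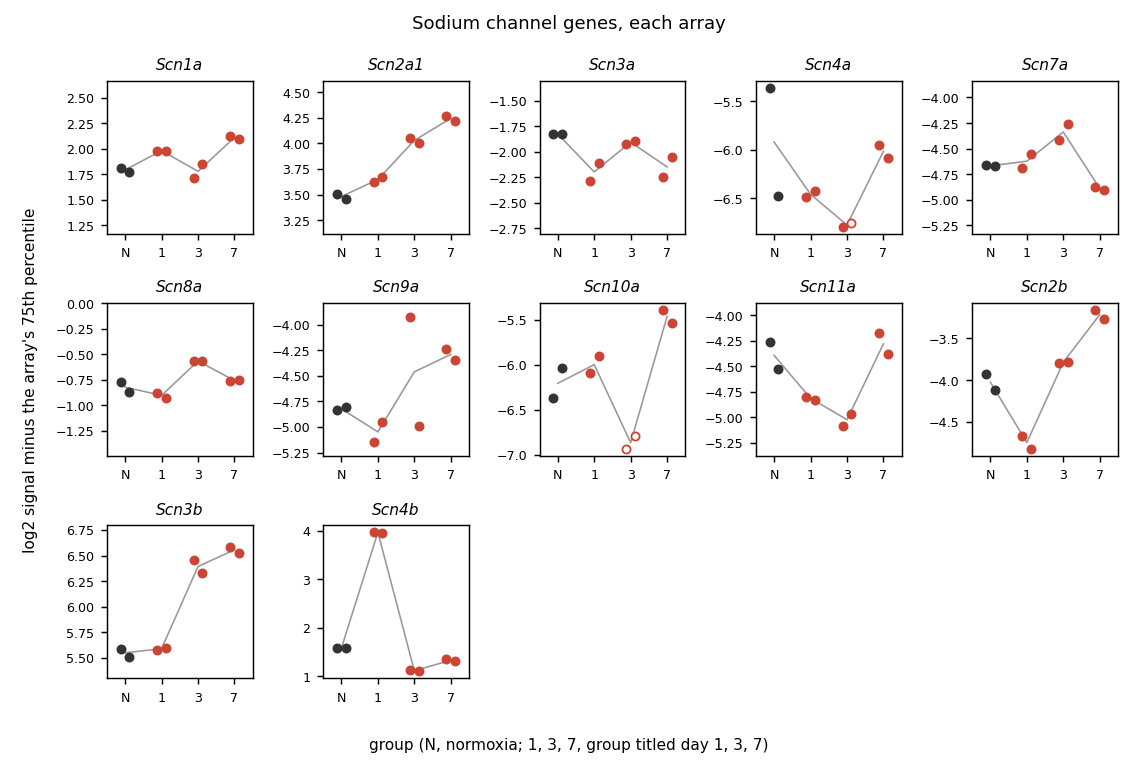
Log2 signal minus the array's 75th percentile (y axis) of 12 sodium channel genes on each array in normoxia (N, dark) and on days 1, 3 and 7 (red); lines join group means, open points were not well above background. Scn3b rises from day 3, and Scn2b dips on day 1 to -4.67 and -4.83.

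Of the 9 tested pore-forming calcium channel genes, 2 rose and 3 fell on day 1, 3 rose and 2 fell on day 3, and 5 rose and 3 fell on day 7. Of all genes, 35.5%, 50.3% and 61.3% were called on those days. Cacna1b and Cacna1a, genes of presynaptic channels, were called in opposite directions against normoxia on days 3 and 7. The day 7 call of Cacna1a was not stable, and Cacna1b was not called on day 1. Cacna1b, the pore of the N-type channel that triggers transmitter release, was measured on 10 spots (rn4 chromosome 3, 2873479 to 2873538). It read 2.04 and 2.003 (normoxia), 2.06 and 2.06 (day 1), 2.42 and 2.37 (day 3) and 2.79 and 2.83 (day 7). It rose by 0.37 ± 0.04 on day 3 (adjusted p = 0.00109) and by 0.79 ± 0.04 on day 7 (adjusted p = 7.3e-05). A second Cacna1b probe of low signal gave -0.22, -1.04 and -0.31 on days 1, 3 and 7 with an SE of 0.45, and was not called.

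Cacna1a, the pore of the P/Q-type channel, read -1.89 and -1.85 (normoxia), -2.47 and -2.50 (day 1), -2.63 and -2.59 (day 3) and -1.99 and -2.15 (day 7) (rn4 chromosome 19, 25320530 to 25320589). All exposed arrays lay below both normoxia arrays, those of day 7 the nearest. The changes were -0.61 ± 0.06 on day 1 (adjusted p = 0.00175), -0.74 ± 0.06 on day 3 (adjusted p = 0.000591) and -0.20 ± 0.06 on day 7 (adjusted p = 0.0331). The day 7 call was lost without any 1 array other than the first day 7 array (-0.22 to -0.12), and median centring turned its value to 0.10. Neither normexp (-0.15) nor quantile normalization (-0.02) kept it. A dimmer Cacna1a probe gave 0.04, -0.11 and -0.58, of which the last was called. Cacna1e, the R-type pore, rose on all 3 days (0.63, 0.70 and 0.54, each ± 0.09). Its other probe gave -0.18, 0.63 and 0.39, called on days 3 and 7.

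The L-type genes, whose channels couple dendritic depolarisation to gene expression, did not move as 1 group. Cacna1c (10 spots, rn4 chromosome 4, 154895974 to 154896033) read -1.15 and -1.21 (normoxia), -1.68 and -1.61 (day 1), -1.03 and -1.05 (day 3) and -0.74 and -0.65 (day 7). It fell by 0.46 on day 1 (± 0.05, adjusted p = 0.0025) and rose by 0.49 on day 7 (± 0.05, adjusted p = 0.000685). A second Cacna1c probe gave -0.18, 0.00 and -0.05, none called. Cacna1d fell by 0.40 on day 7 (± 0.11, adjusted p = 0.0259). That call was lost without the second array of normoxia or of day 7 or without either day 1 array (adjusted p 0.0501 to 0.112), and normexp turned its value to 0.17. The Cacna1d day 7 value was -0.04 with quantile normalization, -0.11 with median centring and -0.16 with GC trend removal, none called. Cacna1s, the skeletal muscle pore, rose by 0.53 ± 0.09 on day 1 and by 0.48 ± 0.09 on day 7, the day 1 call being lost without either day 1 array (adjusted p 0.052 to 0.0546).

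T-type channels open near rest and drive burst firing. Cacna1h read 1.98 and 2.06 (normoxia), 1.82 and 1.88 (day 1), 2.44 and 2.47 (day 3) and 2.48 and 2.55 (day 7), from 1 spot per array (rn4 chromosome 10, 14621473 to 14621532). It rose by 0.43 ± 0.05 on day 3 (adjusted p = 0.00163) and by 0.50 ± 0.05 on day 7 (adjusted p = 0.000598). The fall of 0.17 on day 1 (adjusted p = 0.0494) was lost without any 1 of the 8 arrays (-0.21 to -0.13, adjusted p 0.0573 to 0.203). Cacna1g fell on days 3 and 7 by both probes, by 0.32 and 0.27 on the brighter one, and by 0.79 and 1.03 on the other. For the brighter probe, the day 7 value was 0.02 with median centring and -0.05 with GC trend removal, and normexp ended both calls (-0.20 on each day). Cacna1i was not called by its brighter probe, whose normoxia arrays read 1.36 and 2.26. Its second probe, which shares 43 of 60 bases with the first, fell by 0.25 on day 7 (adjusted p = 0.0224).

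The alpha2delta and calcium channel beta genes included 2 that turned direction between day 1 and day 3. Cacna2d3, an alpha2delta subunit of brain (rn4 chromosome 16, probe span 4238455 to 4247999), read -0.19 and -0.29 (normoxia), 0.32 and 0.31 (day 1), -1.01 and -1.06 (day 3) and -1.35 and -1.31 (day 7). Day 1 lay above normoxia and the later groups below it. The change was 0.55 ± 0.05 on day 1 (adjusted p = 0.00129), -0.80 ± 0.05 on day 3 (adjusted p = 0.000303) and -1.09 ± 0.05 on day 7 (adjusted p = 6.42e-05).

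Cacnb4, a cytosolic beta subunit whose loss causes ataxia and seizures in mice, followed the same order of signs. Its brighter probe (rn4 chromosome 3, 33936598 to 33936657) read -0.24 and -0.19 (normoxia), 0.44 and 0.43 (day 1), -0.93 and -0.89 (day 3) and -0.68 and -0.69 (day 7). The changes were 0.66, -0.69 and -0.47, each ± 0.04 (adjusted p = 0.000349, 0.000224 and 0.000282). The second Cacnb4 probe, also well above background on all 8 arrays, gave -0.16, -0.07 and -0.02 and was not called.

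The other genes of these families showed smaller or less certain changes. Cacna2d1, the alpha2delta subunit bound by gabapentin, rose by 0.14 ± 0.03 on day 3 (adjusted p = 0.0177) and by 0.24 ± 0.03 on day 7 (adjusted p = 0.00184). The day 3 call was lost without either normoxia array or the second day 3 array (adjusted p 0.0586 to 0.0853). With quantile normalization the Cacna2d1 value was 0.02 on day 3 and 0.01 on day 7, and with normexp it was 0.15 and 0.10, none of them called. Cacna2d2, also bound by gabapentin, had a dim probe: its signal measured 1.79-fold lower on day 7 (adjusted p = 0.0414), where neither array was well above background. Its day 3 change was -1.03 ± 0.27 (adjusted p = 0.0253), ran from -1.45 to -0.62 when 1 array was left out, and was -0.40 in a fit of the authors' deposited values. Both Cacna2d2 calls were lost when 1 normoxia or 1 day 1 array was left out, and that of day 7 also without 1 day 7 array. With normexp Cacna2d2 was called higher on both days (0.18, adjusted p = 0.0376, and 0.28, adjusted p = 0.00451).

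Cacnb1 rose on all 3 days by its brighter probe, by 0.16, 0.19 and 0.38 (each ± 0.05). Its other probe gave -0.08, -0.11 and 0.06 and was not called. The Cacnb1 day 1 call was lost without any 1 of the 8 arrays (adjusted p 0.0601 to 0.2), and the day 3 call without the first normoxia array or either day 3 array (adjusted p 0.061 to 0.0879). Cacnb2 fell by 0.77 on day 7 (± 0.14, adjusted p = 0.00544), but with normexp the change was -0.155 and was not called (adjusted p = 0.121). Cacnb3, the beta subunit typical of N-type channels, fell by 0.14 on day 3 (± 0.03, adjusted p = 0.0179). Without any 1 array of normoxia or day 3 the Cacnb3 call was lost (adjusted p 0.0523 to 0.078), and its value was 0.01 with median centring.

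The gamma genes of the AMPA receptor auxiliary proteins divided on days 3 and 7. Cacng3, an auxiliary protein of forebrain AMPA receptors (rn4 chromosome 1, 181594005 to 181594064), read -1.14 and -1.05 (normoxia), -0.95 and -0.94 (day 1), -1.63 and -1.62 (day 3) and -2.46 and -2.41 (day 7). The later groups lay below normoxia, day 7 the lower. Cacng3 fell by 0.52 on day 3 (± 0.05, adjusted p = 0.000749) and by 1.34 on day 7 (± 0.05, adjusted p = 4.3e-05), to 0.40 of its normoxia signal.

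Cacng4, another such protein, read -4.63 and -4.68 (normoxia), -4.47 and -4.46 (day 1), -5.80 and -6.20 (day 3) and -5.56 and -5.78 (day 7). It fell by 1.35 on day 3 (± 0.14, adjusted p = 0.00135) and by 1.02 on day 7 (± 0.14, adjusted p = 0.00222). On day 3 it was well above background on 1 of the 2 arrays, and with normexp its day 7 change was 0.00. The day 3 change of Cacng4 ran from -1.35 to -0.21 over the alternative scalings. Cacng2 (stargazin) went the other way. It read 2.80 and 2.88 (normoxia), 2.80 and 2.79 (day 1), 3.02 and 3.01 (day 3) and 3.30 and 3.31 (day 7).

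Cacng2 rose by 0.17 on day 3 (± 0.04, adjusted p = 0.0177) and by 0.46 on day 7 (± 0.04, adjusted p = 0.000373). The day 3 call was lost without the first normoxia array or either day 3 array (adjusted p 0.0634 to 0.0738), and with quantile normalization (0.08, adjusted p = 0.165). Cacng8, the auxiliary protein best known from hippocampal AMPA receptors, read -1.89 and -1.82 (normoxia), -2.01 and -1.97 (day 1), -1.37 and -1.25 (day 3) and -1.87 and -1.83 (day 7). Only its day 3 arrays stood apart above the others, with a change of 0.55 ± 0.06 (adjusted p = 0.00116). Its day 7 value was 0.01 ± 0.06.

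Cacng7, an auxiliary protein of a second type, fell on all 3 days, by 0.46, 0.36 and 0.32 (each ± 0.07), though normexp ended the day 3 call (-0.06, adjusted p = 0.44). The Cacng7 day 7 value was 0.05 with normexp, -0.02 with median centring, -0.01 with quantile normalization and -0.07 with GC trend removal. Cacng1, the gamma subunit of skeletal muscle, rose 2.15-fold on day 1 (1.104 ± 0.30, adjusted p = 0.0407) by its brighter probe and by 0.62 on the other, which was not called. The Cacng1 call was lost without any 1 array of normoxia, day 1 or day 3 (0.95 to 1.26, adjusted p 0.0595 to 0.169). Cacng5 and Cacng6 were dim, with changes between -0.90 and 0.18, none called.

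**Figure D4:**
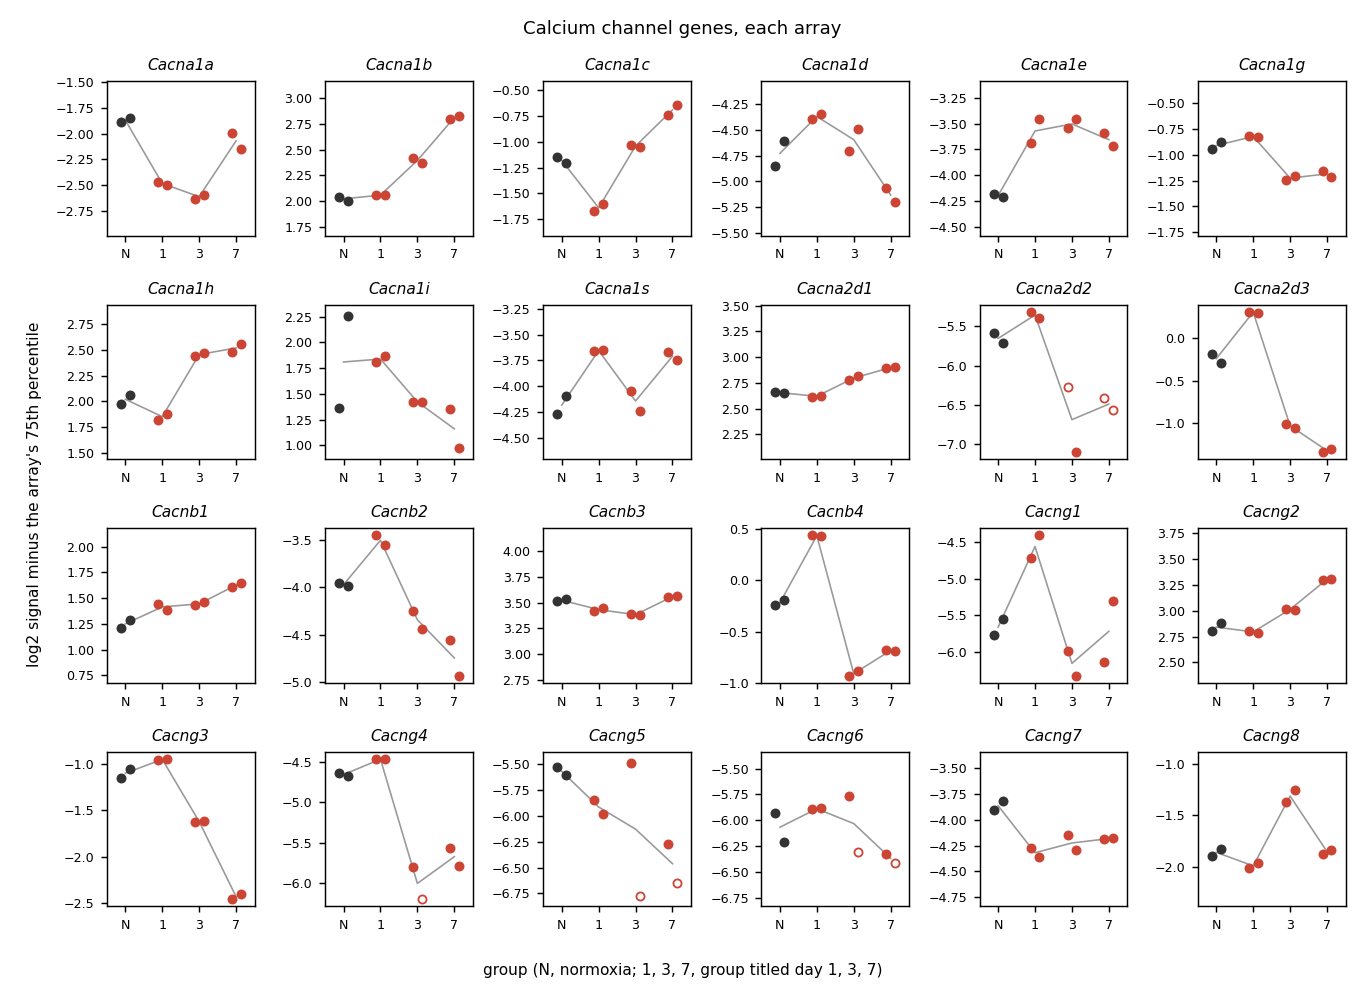
Log2 signal minus the array's 75th percentile (y axis) of the 24 tested calcium channel genes on each array in normoxia (N, dark) and on days 1, 3 and 7 (red); lines join group means, open points were not well above background. Cacna2d3 and Cacnb4 are high on day 1 and low later, and Cacng3 ends at -2.46 and -2.41 on day 7.

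The auxiliary and pore-forming genes were also counted by role. Of 19 tested auxiliary genes, 5 rose and 9 fell on day 3 (median -0.37), and 5 rose and 9 fell on day 7 (median -0.30). Of 19 pore-forming genes, 6 rose and 5 fell on day 3 (median 0.04), and 8 rose and 6 fell on day 7 (median 0.11). Of all genes, 24.2% rose and 26.2% fell on day 3, and 31.5% rose and 29.7% fell on day 7. The difference between the roles was not tested, and its size varied with the scaling. With normexp the auxiliary medians were 0.15 (day 3) and 0.10 (day 7), and the pore-forming medians 0.24 and 0.40. With median centring the auxiliary medians were -0.22 and -0.01, and the pore-forming medians 0.19 and 0.41. The auxiliary median was the lower on both days under every scaling. On day 1, 5 auxiliary genes rose and 2 fell, and 4 pore-forming genes rose and 6 fell, where 15.3% of all genes rose and 20.2% fell.

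Between consecutive groups, 12 channel genes were higher on day 3 than on day 1 and 14 were lower (68.4%), where 51.2% of all genes were called, 28.2% higher and 23% lower. None was higher by 2-fold or more, where 1.85% of all genes were, and 6 were lower by that much, where 4.63% were. These were Scn4b (-2.85 ± 0.04), Cacng1 (-1.60 ± 0.30), Cacng4 (-1.54 ± 0.14), Cacna2d3 (-1.35 ± 0.05), Cacnb4 (-1.35 ± 0.04) and Cacna2d2 (-1.33 ± 0.27). Over the alternative scalings Cacng1 ran from -1.50 to -0.37 and Cacng4 from -1.54 to -0.41. Cacna2d2 was -0.02 with normexp and not called. Scn4b, Cacna2d3 and Cacnb4 stayed at -1.23 or lower. The second Cacnb4 probe, however, gave 0.09 between these days and was not called (adjusted p = 0.447). The call of Cacna2d2 was lost without the first day 1 array (adjusted p = 0.0552). The rises were led by Scn2b (0.96 ± 0.09), Scn3b (0.80 ± 0.06) and Cacng8 (0.68 ± 0.06). From day 3 to day 7, 15 genes were higher on day 7 and 7 lower (57.9%), where 42.4% of all genes were called, 24.2% higher and 18.3% lower. A 2-fold difference was met by 1 gene that was higher, Scn10a, where 0.897% of all genes met it, and by none that was lower, where 2.16% did.

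Scn10a measured 2.65-fold higher on day 7 than on day 3 (adjusted p = 0.00167), where neither day 3 array was well above background. Over the alternative scalings that log2 difference ran from 0.45 to 1.55. Scn11a was higher by 0.74 ± 0.11 (adjusted p = 0.00584). Cacng3 was lower again on day 7 than on day 3, by a difference of -0.81 ± 0.05 (adjusted p = 0.000529). Cacng8 was also lower on day 7, by a difference of -0.54 ± 0.06 (adjusted p = 0.00192). Cacna1a was higher on day 7 than on day 3 by 0.54 ± 0.06 (adjusted p = 0.00229) by its brighter probe. The dimmer Cacna1a probe gave -0.47 (adjusted p = 0.0753) and the mean of its probes 0.03 (adjusted p = 0.815), neither called.

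Changes of all genes varied with signal. With genes divided into 10 equal bins by mean signal, the median change of the brightest bin was -0.01, 0.18 and 0.36 on days 1, 3 and 7, and that of the dimmest was -0.40, -0.63 and -0.65. Of the channel genes 3 lay in the brightest bin and none in the dimmest. Within a bin the channel genes could lie away from all genes or among them. On day 7 the 4 in the seventh bin had a median of -0.78, where the quartiles of all genes in that bin were -0.32 and 0.35. The 7 in the ninth bin had a median of 0.32, inside the quartiles there (-0.02 and 0.485). Cacng2 (0.46), Scn1a (0.32) and Cacna2d1 (0.24) lay inside those quartiles. Cacna1b (0.79) and Cacna1h (0.50) lay above them, and Scn4b (-0.25) and Cacna1i (-0.65) below. Scaling moved the split of calls. Median centring shifted the median of all genes by 0.15 on day 3 and 0.30 on day 7, and normexp by 0.18 and 0.26.

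On day 7 the channel genes then divided into 17 higher and 7 lower with median centring and 19 and 7 with normexp, against 13 and 15 above, and quantile normalization gave 13 and 10. Over all genes the higher share of the day 7 calls was 51.5%, with 73.1% and 71.5% under these scalings. On day 3 normexp gave 17 higher and 9 lower channel genes, and the higher share over all genes was 48.0%, with 66.7% under median centring and 67.9% under normexp. On day 1, correction of every array for probe GC content gave 13 higher and 5 lower, and the higher share over all genes was 43.1% before and 57.2% after it. Between day 3 and day 1, normexp gave 17 higher and 10 lower, and the higher share over all genes was 70.8%, against 55.1% without it. Between day 7 and day 3, median centring gave 21 higher and 5 lower, and the higher share over all genes was 77.2%, against 57.0% without it.

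**Figure D5:**
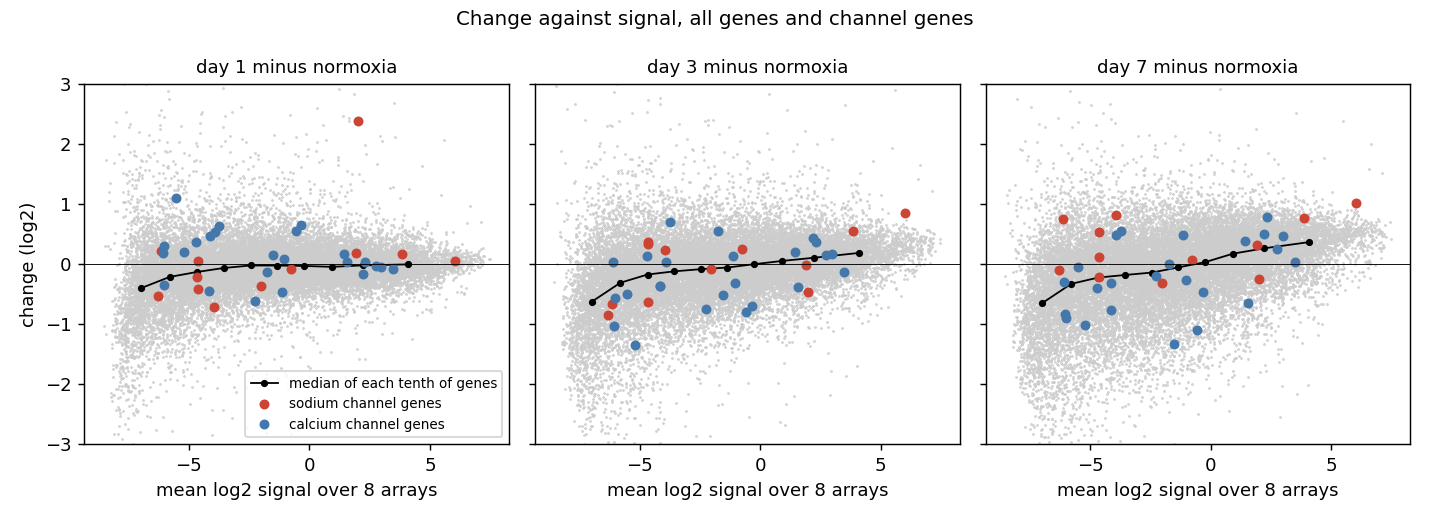
Change against normoxia (y axis, log2, shown from -3 to 3, so genes beyond are outside the frame) by mean log2 signal over 8 arrays (x axis) for all 21296 genes (grey), sodium (red) and calcium (blue) channel genes, on days 1, 3 and 7; black points are medians of 10 bins of genes by signal. The median of the brightest bin is 0.36 on day 7, and that of the dimmest is -0.65.

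Genes of proteins that bind, anchor or inhibit these channels were followed as a second list. Of 35 tested, 12 rose and 3 fell on day 1, 12 rose and 11 fell on day 3, and 13 rose and 9 fell on day 7, with medians of 0.09, 0.07 and 0.02. The shares called were 42.9%, 65.7% and 62.9%, where 35.5%, 50.3% and 61.3% of all genes were called on those days. Nfasc (neurofascin), which helps anchor sodium channels at the axon initial segment and nodes, read -0.96 and -1.06 (normoxia), -0.23 and -0.28 (day 1), -1.35 and -1.35 (day 3) and -2.40 and -2.46 (day 7). Only day 1 lay above normoxia, and day 7 lay lowest. It rose by 0.75 ± 0.05 on day 1 (adjusted p = 0.000561) and fell by 1.42 on day 7 (± 0.05, adjusted p = 4.3e-05).

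Other partners with the smallest p moved in both directions. Ahnak, a scaffold that binds calcium channel beta subunits, rose by 0.61 ± 0.04 on day 1 and on day 3. Rims2, an active zone protein that binds calcium channels, rose by 0.87 ± 0.06 on day 1, and Fgf13, an intracellular partner of sodium channels, fell by 0.49 (± 0.03). On day 3 Camk2a, a calcium-dependent kinase, rose by 0.72 ± 0.04. Rrad, an inhibitor of calcium channels, fell by 0.46 (± 0.04), and Cntn1, an adhesion protein that binds sodium channels, fell by 0.42 (± 0.04). On day 7 the kinase anchors Akap5 and Akap7 rose by 0.81 ± 0.04 and 0.70 ± 0.04, and Crmp1, a cytoskeletal regulator related to the N-type channel partner Dpysl2, fell by 1.58 (± 0.08).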

How the data were processed

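The deposited scanner output of the 8 arrays holds, per the file headers, a background-subtracted, processed signal intensity per spot, written by Agilent Feature Extraction 11.5.1.1. The authors' deposited table of the series holds log2 values whose scaling is not given in the sources used here. From 96.7% to 97.4% of them matched to within 0.05, after 1 constant per array, the scaled log2 signal described next, with column medians of -3.53 to -3.23. All arrays lay on 1 slide, so it could not be a block, and no sample spot was saturated.

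Control and outlier spots were dropped. Log2 processed signals were averaged over the spots of a probe, and the 75th percentile of the array was subtracted. A probe counted as well above background where at least 50% of its spots were marked so. A probe was kept if some group had it well above background on both arrays (24678 of 30346 complete probes). The brightest kept probe on average stood for its gene, for 21296 genes. Of these, 3100 are probes whose gene name in the files is the probe's own name, each counted as a gene. The 12 channel genes with more than 1 probe were also tested by probe. Groups were compared in 1 limma model (version 3.58.1, R 4.3.3, functions lmFit and eBayes, 4 residual and 1.22 prior degrees of freedom), two-sided, with Benjamini-Hochberg adjustment over all genes. Each exposed group was set against normoxia (3 comparisons), neighbouring groups against each other (2 comparisons), and a moderated F-test took all groups. In some comparisons no array of the lower group was well above background. The fold was then taken against whichever was higher, that group's own signal or the array's lowest signal well above background. For the folds given here the group's own signal was the higher, so they are measured folds and not lower limits.

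Gene and probe names and rn4 coordinates are those of the array annotation. The channel genes, 13 marker lists and 3 partner lists were chosen with earlier results of these data known, and up to 4 partners with the smallest p were to be named per comparison. For arrays there is no depth, and precision is limited by how many there are. In data simulated on day 1 against normoxia (21296 genes, 200 changed), 59.7%, 73.1% and 84.8% of changes of 0.5, 1 and 2 log2 were recovered. In the data 35.5% of genes were called on day 1, far more than were changed in the simulation. The adjustment is then less strict, so these rates do not give the recovery of the tests above. Alternatives of scaling were quantile normalization, median centring, normexp (offset 50), the deposited table and removal of the trend with probe GC. Alternatives of selection were to drop the filter, to require all 8 arrays, to average or test separately the probes of a gene, and a 2-fold threshold. Alternatives of the model were an intensity-dependent prior, a fit of only the compared groups, a replicate block, and each array left out in turn. Leaving out both day 1 arrays was added after the data were seen. Promoters were RefSeq's for GRCr8. Values of 2 channel genes are not reported here, though the counts over all channel genes hold them.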

Additional observations from a re-analysis of the deposited data

Results flagged for a closer look

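For 4 genes the changes against normoxia on day 1 and day 3 were called in opposite directions, and the difference between day 3 and day 1 was itself called by limma. The log2 difference, day 3 minus day 1, was -2.85 ± 0.04 for Scn4b, -1.35 ± 0.05 for Cacna2d3, -1.35 ± 0.04 for Cacnb4 and 0.60 ± 0.05 for Cacna1h. The Cacna1h day 1 call was lost without any 1 array (adjusted p 0.0573 to 0.203), while its day 3 minus day 1 difference kept its call. The second Cacnb4 probe was called on no day.

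For 2 genes the changes on day 3 and day 7 were called in opposite directions and the difference between those days was called. The log2 difference, day 7 minus day 3, measured 1.41 (2.65-fold) for Scn10a, for which neither day 3 array was well above background. Over the alternative scalings it ran from 0.45 to 1.55. For Scn7a the difference was -0.55 ± 0.07, and its call was lost with normexp (-0.17) and with the mean of probes (-0.15). The Scn7a day 7 value against normoxia was 0.13 with quantile normalization, 0.07 with median centring and 0.28 with normexp, the last called higher. The second Scn7a probe read lower than normoxia on all 3 days, but was well above background on no array of day 3 or day 7.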

How the results depend on the processing

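Of the channel gene calls, 7 of 17 on day 1, 14 of 25 on day 3, 14 of 28 on day 7, 17 of 26 between day 3 and day 1 and 7 of 22 between day 7 and day 3 were kept under every alternative run other than the 2-fold threshold. Leaving out 1 array gave 9 to 15 called channel genes on day 1, 21 to 26 on day 3, 24 to 29 on day 7, 21 to 26 between day 3 and day 1 and 17 to 23 between day 7 and day 3. Over all genes it gave 4350 to 7669 calls on day 1 (7559 with all arrays). With a 2-fold threshold the channel calls were 2, 3 and 5 on days 1, 3 and 7, 6 between day 3 and day 1 and 1 between day 7 and day 3. The calls over all genes were then 761, 1509, 2420, 1380 and 650. Without the filter 11 channel genes were called on day 1. With only the groups compared, day 7 against day 3 gave 14 channel genes and 5358 of all genes. Replicate numbers did not pair the arrays (correlations of deviations -0.15 to 0.05); with a replicate block 13, 27, 27, 26 and 23 channel genes were called in the 5 comparisons.

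Some values turned sign. On day 3 these were Cacnb3 with median centring (0.00697) and GC trend removed (0.0294), Cacna2d2 (0.18) and Scn10a (0.32) with normexp, and Cacna1b (-0.34) and Scn7a (-0.52) with the mean of probes. On day 7 quantile normalization turned Cacnb3 (-0.22) and Scn7a (0.13), and GC trend removal Scn8a (-0.12). Median centring on day 7 turned Scn7a (0.0734), Cacna1a (0.0956), Cacna1g (0.0206) and Scn4b (0.0453). Normexp on day 7 turned Scn7a (0.28), Cacna2d2 (0.28), Cacna1d (0.17), Cacng1 (0.46), Cacng4 (0.000451), Cacng5 (0.24), Cacng6 (0.49), Cacng7 (0.047) and Scn4a (0.47). Without 1 array the day 7 value of Scn4a ran from -0.656 to 0.464. Between day 3 and day 1 normexp turned Cacng5 (0.26), Cacng6 (0.29), Scn10a (0.14) and Scn4a (0.31), and the mean of probes turned Cacna1b (-0.24) and Scn7a (-0.12). Among genes called in the main fit, some turned values against normoxia were called in the opposite direction. With normexp these were Cacna2d2 on days 3 and 7, Scn10a on day 3 and Scn7a on day 7. With the mean of probes it was Scn7a on day 3. The cause of the turns was not tested. Dim probes limit what can be said of Cacna2d2, Cacng4 to Cacng6, Scn4a and Scn10a.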

Other observations

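The other marker lists gave these counts against normoxia, as descriptions. Endothelial markers rose for 5 of 6 genes on each of days 1, 3 and 7 (medians 1.76, 1.73 and 1.38). Thalamic markers fell for 6, 7 and 5 of 8 (medians -0.53, -0.79 and -0.38), and vascular smooth muscle markers for 3, 4 and 4 of 5 (medians -0.45, -0.51 and -1.08). Microglial markers rose for 2 of 6 on day 1 and fell for 4 and 5 of 6 on days 3 and 7 (medians -0.01, -0.31 and -0.72).

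General neuronal markers had medians of -0.04, -0.12 and -0.13 on days 1, 3 and 7 over 9 genes, and hippocampal neuron markers -0.18, 0.20 and -0.24 over 10. Astrocyte markers had medians of -0.05, 0.14 and 0.23 over 8 genes, oligodendrocyte markers 0.03, -0.10 and -0.10 over 8, and oligodendrocyte precursor markers -0.15, -0.51 and -0.15 over 6. Skeletal muscle markers had medians of -0.22, -0.07 and 0.04 over 8 genes, and peripheral sensory neuron markers -0.37, 0.01 and -0.34 over 5. Striatal markers, all higher on day 1, rose for 3 and fell for 6 of 13 on day 7 (median -0.14). The part of these cell types in the channel gene results was not tested.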
